A study of Mus musculus with 4 samples.

Results

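The genes described here are 10 markers of activated, phagocytic microglia and macrophages, namely Trem2, Tyrobp, Cd68, Ctss, Fcer1g, Fcgr1, Fcgr3, Lgals3, Ptprc and Aif1. They were chosen by name, as a list of activation, Fc receptor and lysosomal markers, and all 10 were found among the 48897 genes of the deposited table. This list and the other gene lists below were chosen with earlier results of these data known. Their counts set beside shares over all genes are therefore descriptions only. The retinas came from C57BL/6 mice (C57BL/6J in the study's methods) that the labels call wide type, and both groups had an intravitreal injection on postnatal day 3 and were collected on postnatal day 9. An antagomir against miR-124-3p, 0.6 nmol in 1 μl, went into the left eyes (anti-miR-124 group), and the same amount of a scrambled sequence into the right eyes (NC group). An antagomir is a chemically modified antisense oligonucleotide that binds a mature microRNA. There was no group of uninjected eyes among the 4 libraries, so every value below is from an injected eye, and the left eye cannot be told apart from the antagomir. Each library was made from mixed retinas, and 1 left-eye and 1 right-eye library share a number. They are called pair A (NC-A and anti-A) and pair B (NC-B and anti-B), since the labels do not tie the shared numbers to replicate 1 and replicate 2. Values given as 2 numbers per pair have the NC library first.

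Microglia are the resident macrophages of the retina. In the days after birth they clear dying neurons and prune synapses. TREM2 is a surface receptor for lipids and apoptotic debris that has almost no signalling tail of its own and works through the adaptor TYROBP (DAP12). Activating Fc gamma receptors, which bind antibody-coated particles, likewise signal through the adaptor FCER1G. Both adaptors carry an immunoreceptor tyrosine-based activation motif (ITAM), which recruits the kinase SYK. Engulfed material is then broken down in lysosomes, where CD68 sits in the membrane and cathepsin S cuts proteins.

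The libraries held 16317239 to 18726963 counts, of which the 10 genes together took 575 to 2957. Each of the 10 rested on 12 to 1115 counts per library. Over 15 markers of retinal neurons and Muller glia, the libraries held 9971 to 10459 CPM (counts scaled to a common library size by the trimmed mean of M-values, TMM), with 4436 to 5954 counts of Glul, an enzyme of Muller glia. Of the libraries, 3 stood apart, each in other genes. NC-A held 20250 CPM over 21 lens genes, against 55.2 to 80.2 CPM in the others, with Cryaa, a lens crystallin, at 94776 counts against 148 to 357. Anti-A held 310 CPM over 8 erythrocyte genes, against 83.6 to 143 CPM. Anti-B held the highest value of all 10 genes described here. The part of lens and blood RNA in the values of the 10 genes was not tested.

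In pair B, all 10 genes were several times higher after anti-miR-124, and in pair A 9 of the 10 were lower, if often within counting error. In a whole retina, more cells of a type and more RNA per cell cannot be told apart, so none of these values gives a number of microglia. The median log2 ratio of the 10 genes, from TMM-scaled CPM with 0.5 added to each count, was 2.03 in pair B but -0.43 in pair A. The medians of all 17766 genes tested were 0.003 and -0.01. In pair B, the ratios without the added 0.5 ran from 3.09 for Fcgr3 to 23.2 for Lgals3, and the 95% exact binomial counting interval lay above 1 for all 10. In pair A, the ratios ran from 0.501 for Cd68 to 1.07 for Ctss. There the interval lay below 1 for 3 genes (Cd68, Fcer1g and Trem2) and included 1 for the other 7. These intervals cover counting error only, and with 1 library per group in a pair no test was possible within it. The share of all genes with an interval that excludes 1 was not computed. As a whole, the libraries of each pair differed well beyond sampling noise (chi-square over its degrees of freedom 25.3 in pair A and 9.00 in pair B). An interval that excludes 1 is therefore not by itself particular to these genes.

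**Figure D1:**
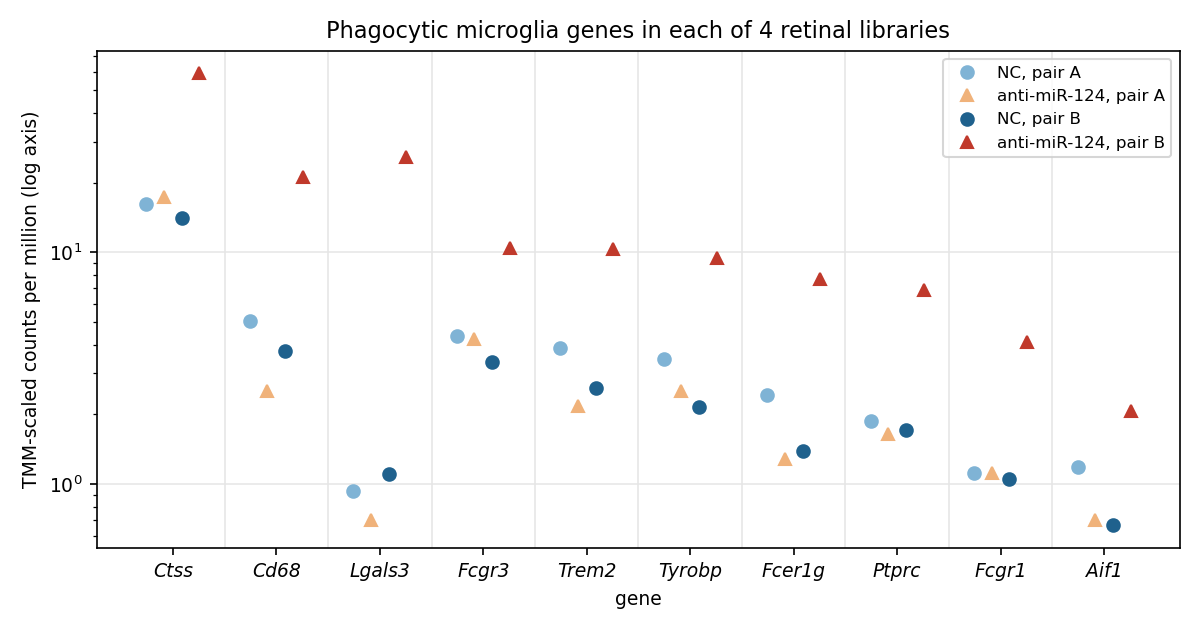
TMM-scaled CPM (log axis) of the 10 genes in the 4 retinal libraries, with 1 point per gene and library, circles for NC and triangles for anti-miR-124. Anti-B is the highest point for every gene, from 2.07 CPM for Aif1 to 59.1 CPM for Ctss. The other 3 libraries lie lower, from 1.05 to 1.12 CPM for Fcgr1 but from 2.52 to 5.03 CPM for Cd68.

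Over both pairs, no gene of the list passed an adjusted p-value of 0.05 in the quasi-likelihood test of edgeR, with Benjamini-Hochberg adjustment over all genes tested, and the adjusted p was 0.989 for each of the 10. The share of all genes that passed was also 0.0%, and the smallest adjusted p among them was 0.487. At an unadjusted p under 0.05, 2 of the 10 genes (Lgals3 and Ctss) had a higher level after anti-miR-124, as did 2.23% of all genes tested. DESeq2's Wald test gave an adjusted p under 0.05 for 0 of the 10 genes and 0.203% of all genes, and an unadjusted p under 0.05 for 4 of the 10 and 1.73% of all. With limma-voom, 0 of the 10 and 0.0% of all genes passed the adjusted threshold, and 0 of the 10 and 3.34% of all the unadjusted one. Without edgeR's filter on low counts, the same test called 8 of the 10 genes, all but Fcgr1 and Aif1, and 1.19% of all genes. The fitted log2 fold changes ran from 0.61 to 3.69, with a median of 1.25 against 0.0007 over all genes tested. These fold changes rested on 1 library. Without anti-B, the median was -0.26 and 7 of the 10 fold changes turned negative. Without anti-A, the median was 1.92 and 9 of the 10 genes and 1.32% of all genes passed the adjusted threshold, in a fit of 1 library against 2 that takes the lone one to vary like the NC libraries. The study's methods call the libraries of a group biological replicates and took each group from more than 1 litter. How animals and litters were divided between the libraries is not given, so p-values measure the spread between these libraries only.

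**Figure D2:**
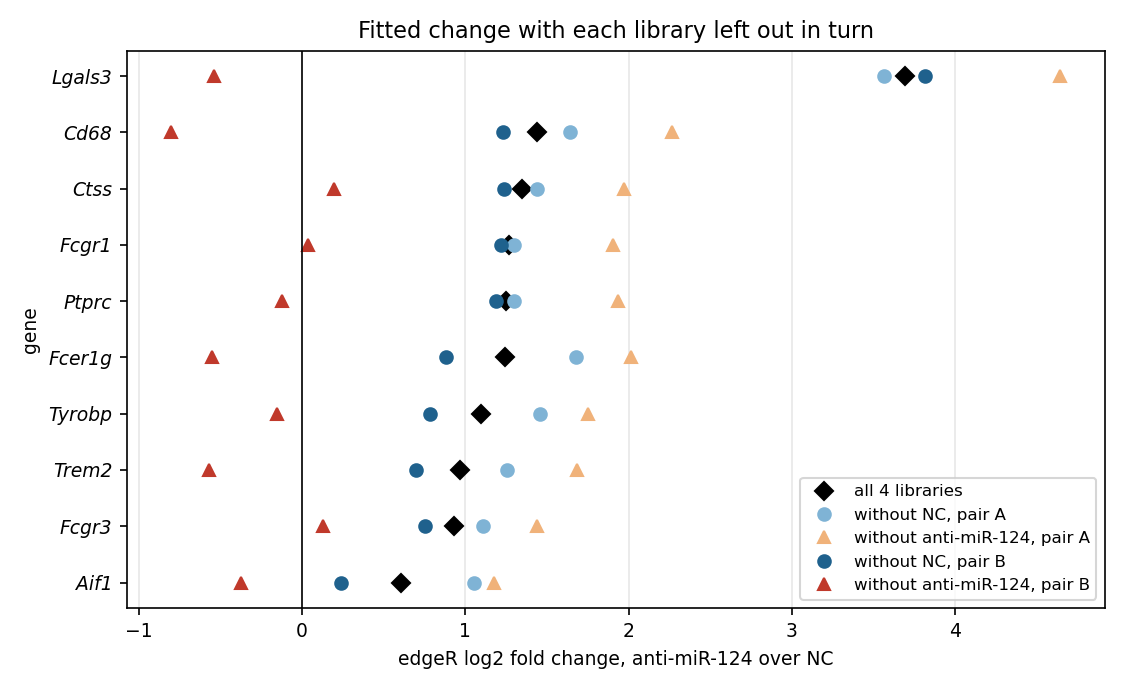
Fitted log2 fold change of each gene (anti-miR-124 over NC, edgeR), with all 4 libraries (diamonds) and with each library left out in turn. Without anti-B (dark red triangles) the values lie between -0.80 for Cd68 and 0.20 for Ctss, and without anti-A (orange triangles) between 1.17 for Aif1 and 4.64 for Lgals3.

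The study's methods keep a gene only if it goes the same way in both replicates. By TMM-scaled CPM, only Ctss of the 10 genes was higher in both pairs, where 22.8% of all genes tested were, and 0 of the 10 were lower in both, where 24.0% were. By TPM, which also scales to gene length and is the unit of the study's methods, 3 genes were higher in both pairs, since Fcgr1 and Fcgr3 then had log2 ratios of 0.10 and 0.06 in pair A. Ctss was also the only gene with both anti-miR-124 libraries above both NC libraries, which held for 16.5% of all genes. A ratio of at least 3 in pair B, a limit set after the values were seen, was reached by all 10 genes and by 1.74% of all genes tested.

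**Figure D3:**
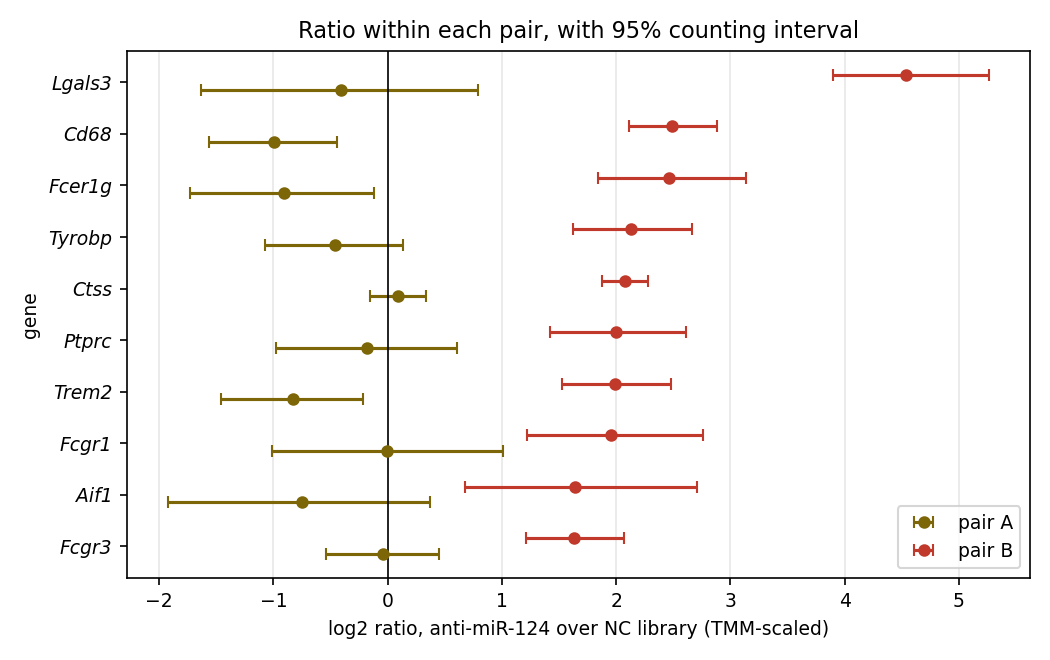
Log2 ratio of the anti-miR-124 over the NC library within pair A and pair B for each gene, from TMM-scaled counts, with 95% exact binomial counting intervals. The pair B intervals all lie above 0 and that of Lgals3, from 3.89 to 5.26, lies above the other 9, while 7 of the pair A intervals include 0.

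The start sites of the 10 genes were compared by letters that known factors of macrophages bind. RefSeq promoter windows of GRCm38.p6, from 250 bases before to 50 after the start site, were found for 9 of the 10 genes, all but Tyrobp. The core GAGGAAG of PU.1, the factor that macrophages and microglia depend on, was searched on both strands. It lay in the windows of 4 of the 9 genes (Trem2, Ctss, Fcgr1 and Fcgr3), and 15.4% of 27025 genes with a window had it. For Fcgr3, the RefSeq windows lie at a start site inside the gene as listed, not at its upstream end. All 4 copies were on the strand opposite to the gene, within 60 bases of the start site of the window. They are shown because they were found in the largest number of the genes, each along the strand of its gene with the match, CTTCCTC, in capitals.

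Trem2, chr17:48346349-48346378, plus strand: agcctcctttcCTTCCTCcctccctcacgc
Ctss, chr3:95526774-95526803, plus strand: atgaaagttcaCTTCCTCattgtggatgct
Fcgr1, chr3:96294007-96294036, minus strand: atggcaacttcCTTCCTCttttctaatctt
Fcgr3, chr1:171059392-171059421, minus strand: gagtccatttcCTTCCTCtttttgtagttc

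Paired GAAA copies 2 bases apart, which interferon regulatory factors bind, were found in the windows of Ctss and Aif1, and in 3.99% of genes with a window. The match of Ctss, which lies close to its PU.1 letters, is shown with the matching letters in capitals. Matches to the 2 motifs did not overlap each other in these windows, and a match is only a description of the sequence.

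Ctss, chr3:95526755-95526784, plus strand: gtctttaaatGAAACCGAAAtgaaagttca

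Of the surface receptors, Trem2 (chromosome 17, 48346401 to 48352276 on the plus strand, GRCm38) had 62 and 37 counts in pair A, against 47 and 195 in pair B. Its pair B ratio was 3.97 (2.88 to 5.59, 95% counting interval), and the pair A ratio was 0.563 (0.364 to 0.859). The pairs thus went in opposite directions, each beyond counting error. The mean was 3.23 ± 0.88 CPM (SD, n = 2) in the NC group and 6.26 ± 5.78 CPM in the anti-miR-124 group. Over both pairs, edgeR gave a log2 fold change of 0.97 with a standard error of 0.66 (adjusted p = 0.989).

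Fcgr1, the high-affinity receptor for IgG (chromosome 3, 96282909 to 96293969 on the minus strand), had 18 and 19 counts in pair A, and 19 and 77 in pair B. All but anti-B were nearly level, at 1.05 to 1.12 CPM, so that the pair A ratio was 0.996 (0.495 to 2.01), against 3.88 (2.33 to 6.79) for pair B. Fcgr3, a low-affinity IgG receptor (chromosome 1, 171051169 to 171065936 on the minus strand), had 70 and 72 counts in pair A, and 61 and 197 in pair B. Its pair B ratio of 3.09 (2.31 to 4.19) was close to that of Aif1, and its pair A ratio of 0.970 (0.689 to 1.37) did not differ from 1 beyond counting error. For Fcgr1 and Fcgr3, edgeR gave log2 fold changes of 1.27 and 0.93 with standard errors of 0.61 and 0.43. Fcgr3 is similar in sequence to the inhibitory receptor Fcgr2b and to Fcgr4, and how reads shared between them were counted is not given in the sources used here. Fcgr2b itself had 16 and 17 counts in pair A, and 21 and 63 in pair B.

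Ptprc encodes CD45, the tyrosine phosphatase that white blood cells and, at a lower level, microglia carry (chromosome 1, 138062859 to 138175756 on the minus strand). Its counts were 30 and 28 in pair A, and 31 and 129 in pair B. Its 2 NC libraries were close, at 1.86 and 1.72 CPM, and anti-A lay just below them at 1.64 CPM. The ratios were 0.881 (0.507 to 1.53) for pair A and 3.99 (2.68 to 6.11) for pair B, with an edgeR log2 fold change of 1.25 and a standard error of 0.63.

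Both ITAM adaptors were highest in anti-B, and for both the groups overlapped. Tyrobp (chromosome 7, 30413788 to 30417582 on the plus strand) had 56 and 43 counts in pair A, against 39 and 178 in pair B, with a pair B ratio of 4.37 (3.08 to 6.35). Fcer1g (chromosome 1, 171229572 to 171234349 on the minus strand) had 39 and 22 counts in pair A, against 25 and 144 in pair B, with a pair B ratio of 5.52 (3.59 to 8.81). The NC libraries of these adaptors differed as well, as pair B had 0.621 (0.402 to 0.952) of the pair A level for Tyrobp and 0.572 (0.332 to 0.969) for Fcer1g. They were the only genes of the 10 for which the NC libraries differed beyond counting error. In pair A, Tyrobp had a ratio of 0.724 (0.475 to 1.10) and Fcer1g of 0.532 (0.301 to 0.920). Their edgeR log2 fold changes were 1.10 and 1.25, with standard errors of 0.60 and 0.76.

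Of the lysosomal genes, Ctss (chromosome 3, 95526786 to 95556405 on the plus strand), which encodes cathepsin S, was the most abundant of the 10. It had 261 and 295 counts in pair A, against 253 and 1115 in pair B. Its group means were 15.1 ± 1.6 CPM (SD, n = 2) for NC and 38.2 ± 29.6 CPM for anti-miR-124, so that the spread between the anti-miR-124 libraries was larger than the difference between the means. It was the only gene of the 10 whose groups did not overlap, with anti-A at 17.3 CPM just above NC-A at 16.2 CPM. The edgeR fit gave a log2 fold change of 1.35 with a standard error of 0.51 (unadjusted p = 0.0355, adjusted p = 0.989). Cd68, a lysosomal membrane glycoprotein of macrophages (chromosome 11, 69664213 to 69666170 on the minus strand), had 81 and 43 counts in pair A, against 68 and 398 in pair B. Its pair B ratio of 5.61 (4.33 to 7.36) was the second highest and its pair A ratio of 0.501 (0.338 to 0.734) the lowest. Like Trem2 and Fcer1g, it therefore went in opposite directions in the pairs, each beyond counting error, and its log2 fold change over both was 1.44 with a standard error of 0.83 (edgeR).

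Lgals3 encodes galectin-3, a lectin that binds galactose-containing sugars and marks damaged lysosomes and phagocytic cells (chromosome 14, 47373860 to 47386167 on the plus strand). It had only 15 and 12 counts in pair A, against 20 and 485 in pair B. NC-A, anti-A and NC-B thus lay close to each other and anti-B far above them. Its pair B ratio was 23.2 (14.9 to 38.4), and no other gene of the list had a counting interval that reached this range, the next highest bound being 8.81 for Fcer1g. Of all genes tested, 11 had a higher log2 ratio in pair B. The edgeR log2 fold change was 3.69 with a standard error of 1.38 (unadjusted p = 0.0338, adjusted p = 0.989), and it was -0.54 without anti-B.

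Aif1 encodes IBA1, an actin-binding protein that is the usual stain for microglia (chromosome 17, 35170991 to 35176080 on the minus strand). It was among the weakest, with 19 and 12 counts in pair A, against 12 and 39 in pair B. Its pair B ratio of 3.11 (1.60 to 6.53) and that of Fcgr3 were the lowest of the list, in an order that turned with 0.5 added to the counts, and its pair A ratio was 0.596 (0.264 to 1.29). The groups overlapped, and its log2 fold change of 0.61 (standard error 0.59) was the smallest of the 10.

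Levels can be compared between genes only per length, and by TPM the order was similar in the NC libraries. Ctss was the highest, at 34.0 TPM in NC-A and 32.2 TPM in NC-B, followed by Tyrobp at 18.5 and 12.6. Cd68 (12.2 and 10.04), Fcer1g (11.2 and 6.99) and Trem2 (10.2 and 7.55) overlapped with each other, and Fcgr3 lay below them at 6.39 and 5.44. Aif1 (3.48 and 2.15) and Lgals3 (2.01 and 2.62) overlapped, and Fcgr1 (1.31 and 1.35) and Ptprc (0.96 and 0.97) came last. In anti-B, Lgals3 was second at 60.7 TPM, after Ctss at 136 TPM and before Cd68 at 56.1 and Tyrobp at 55.0.

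Lgals3 therefore took 14.9% of the summed TPM of the 10 genes in that library, against 1.91% to 3.20% in the other 3. The shares of Tyrobp, Ctss, Fcgr1, Fcgr3, Ptprc and Aif1 were lower there than in any other library, with Fcgr3 at 4.11% and Aif1 at 1.63%. Shares are parts of 1 total, so a larger share of Lgals3 lowers those of the others. For some the margin over NC-A was small, at 33.2% against 33.9% for Ctss, 1.28% against 1.31% for Fcgr1 and 0.946% against 0.959% for Ptprc. The counting error of the shares was not computed. Cd68 took 13.7% there, against 12.2% and 12.3% in the NC libraries and 7.72% in anti-A. Ctss was the largest share in every library, from 33.2% to 45.6%. Without Lgals3, the summed CPM of the other 9 genes was 4.27 times that of NC-B in anti-B, and 0.847 times that of NC-A in anti-A.

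**Figure D4:**
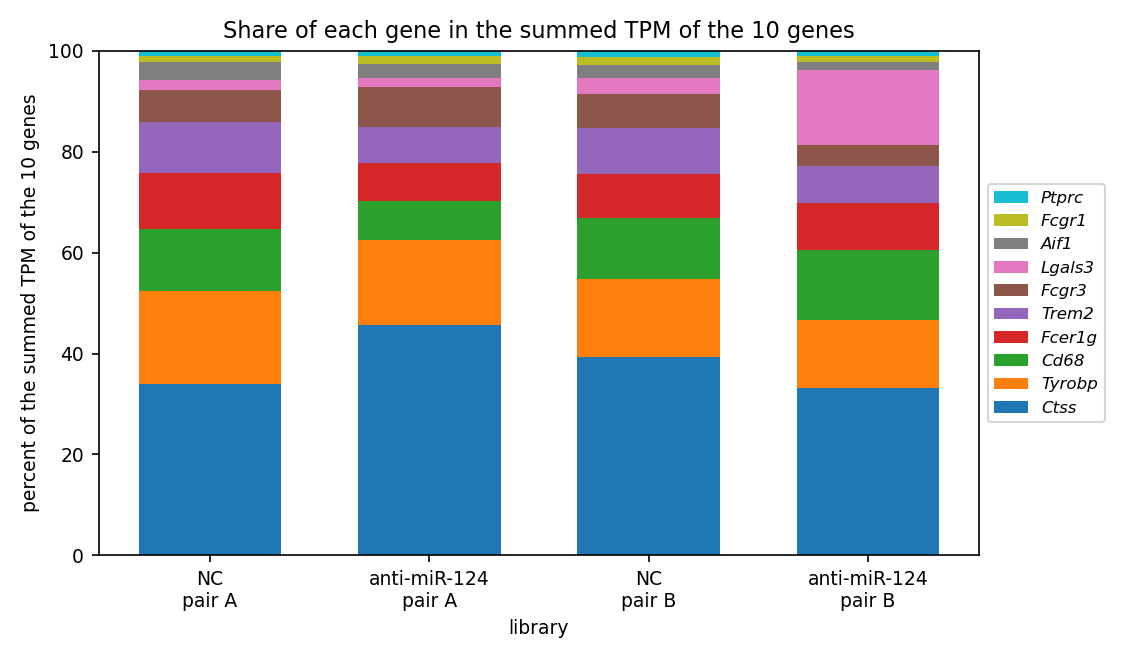
Share of each gene in the summed TPM of the 10 genes (percent), with 1 stacked bar per library. Ctss is the largest share in all 4 bars, and Lgals3 widens from 1.91% to 3.20% in 3 bars to 14.9% in anti-B.

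The genes of the pathway around the list were examined with lists of 16 to 20 genes. For ITAM and Fc receptor signalling, 14 of 20 genes were tested, of which all 14 were higher in pair B. For this list and those that follow, the share of all genes higher in pair B was not computed. The median log2 ratio of all genes tested was 0.003 there, close to no change. In both pairs, 5 of the 14 were higher, where 22.8% of all genes tested were. None of the lists had a gene with an adjusted p under 0.05 (edgeR), and 0.0% of all genes tested had one. At an unadjusted p under 0.05 (edgeR), this signalling list and the lysosomal list had 0 genes, where 2.23% of all genes tested were higher. The median log2 ratio of the signalling genes was 1.13 in pair B and -0.20 in pair A. Their 3 most abundant members were the kinase Lyn, the lipid kinase subunit Pik3cd and the lipid phosphatase Inpp5d, which restrains ITAM signals. Inpp5d had 81 and 56 counts in pair A, against 55 and 203 in pair B, while Pik3cd differed little, with 116 and 134 counts in pair A, against 137 and 159 in pair B. Lyn had 120 and 123 counts in pair A, against 112 and 189 in pair B.

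All 18 genes of lysosomal proteases and membrane proteins were tested, and all were higher in pair B. Their median log2 ratio was 0.85 there and -0.14 in pair A, against 0.003 and -0.01 over all genes tested. Only 2 of the 18 were higher in both pairs, where 22.8% of all genes tested were. These genes are used by every cell of the retina. Their ratios in pair B were smaller than those of Ctss and Cd68, as shown by the most abundant of them, the cathepsins Ctsb (1.94-fold, from 4336 to 8771 counts) and Ctsd (2.04-fold, from 5418 to 11536 counts) and the saposin precursor Psap (1.40-fold, from 7745 to 11286 counts). In pair A these 3 genes had ratios of 0.989, 0.928 and 0.988.

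A list of 16 genes that microglia and macrophages express near damage or plaques (disease-associated microglia) had 13 genes tested, all of them higher in pair B. Of these, 5 were higher in both pairs, where 22.8% of all genes tested were. At an unadjusted p under 0.05, 5 of the 13 were higher, against 2.23% of all genes tested. The median log2 ratio was 1.43 in pair B and -0.12 in pair A, against 0.003 and -0.01 over all genes tested. The ratios were uneven. Spp1, which encodes osteopontin, had 591 and 391 counts in pair A, and 860 and 14386 in pair B. Gpnmb, a transmembrane glycoprotein, had 257 and 144 counts in pair A, against 179 and 4511 in pair B, a ratio of 24.1 that was close to that of Lgals3. Apoe, which Muller glia also express, had a ratio of only 1.91 in pair B, from 4758 to 9509 counts.

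The homeostatic microglia list had a smaller median ratio in pair B, with a wide range. All 20 of its genes were tested and were higher in pair B, and the median log2 ratio was -0.02 in pair A. In pair B the median was 1.20, against 2.03 for the 10 phagocytic genes and 0.003 over all genes tested. This difference between the lists was not tested. In both pairs, 9 of the 20 were higher, where 22.8% of all genes tested were. At an unadjusted p under 0.05 (edgeR), 5 of the 20 were higher, against 2.23% of all genes tested. Of its most abundant genes, Csf1r, the receptor that microglia need to survive, had 373 and 415 counts in pair A, against 322 and 762 in pair B. Cx3cr1, the fractalkine receptor, had 251 and 281 in pair A, against 272 and 487 in pair B, and Tgfbr1, which many cells express, had a ratio of 1.04 in pair B. Among genes chosen after their values were seen, P2ry12, a purinergic receptor, had a ratio of 1.12 in pair B (72 and 84 counts). Cd53, a tetraspanin of white blood cells, had 4.92 (35 and 182 counts), Itgam 4.18 and C1qb, a chain of complement C1q, 3.76, so that part of this list had ratios as high as those of the 10 genes.

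**Figure D5:**
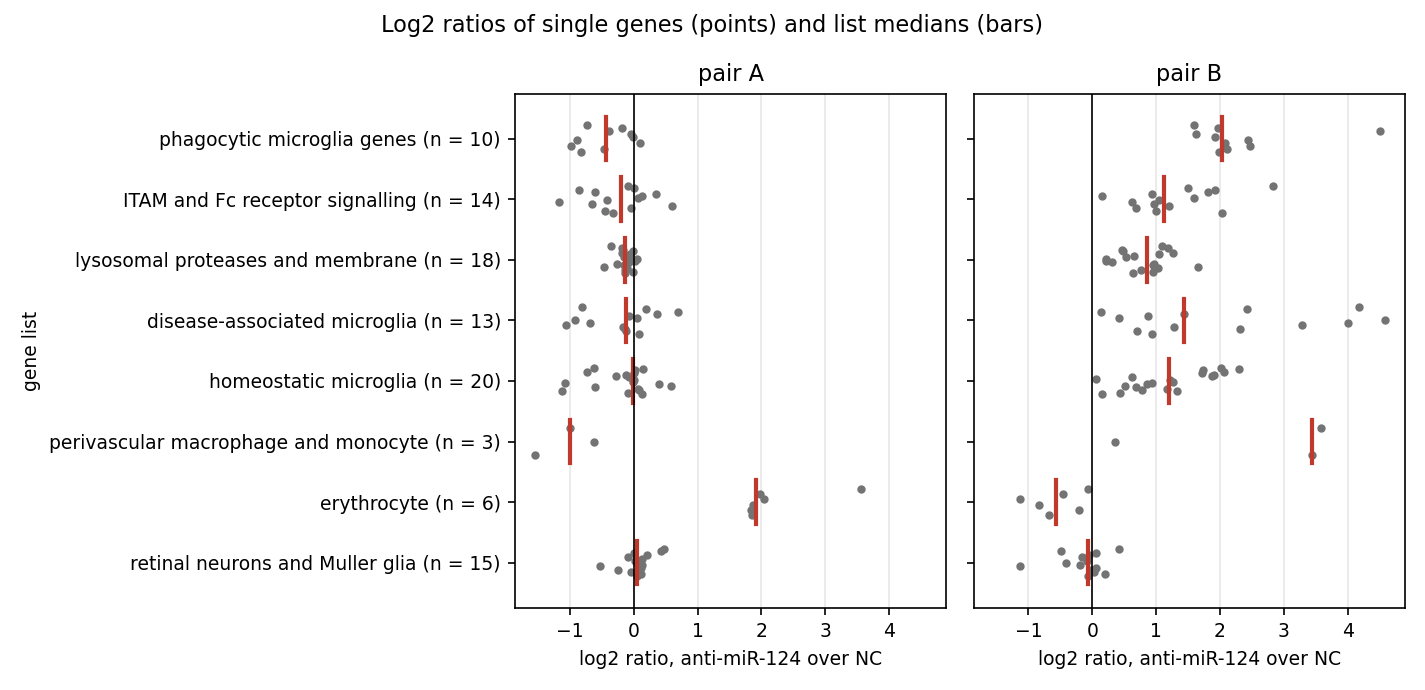
Log2 ratio of the anti-miR-124 over the NC library in pair A (left) and pair B (right) for the tested genes (points) of 8 lists, with the list median as a red bar. The 10 phagocytic genes have medians of -0.43 and 2.03, the homeostatic microglia list of -0.02 and 1.20, and the retinal neuron and Muller glia list of 0.05 and -0.07.

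Other macrophages and blood cells carry several of the 10 genes, so markers of such cells were counted in the same libraries. Of 10 genes of perivascular macrophages and monocytes, 3 were tested, and 2 to 4 of the 10 were at 0 counts in each library. Mrc1, the mannose receptor, had 56 and 20 counts in pair A, against 12 and 142 in pair B, and F13a1 had 25 and 13 in pair A, against 4 and 56 in pair B. Lyve1 had smaller ratios, with 38 and 26 in pair A, against 26 and 35 in pair B. The summed CPM of this list was 8.75 and 3.75 in pair A, against 2.99 and 17.3 in pair B, so that it moved with the 10 genes. The other 7 genes had few counts and are given here for completeness. Ccr2, a receptor of circulating monocytes, was at 0 counts in both libraries of pair A and had 2 and 25 in pair B. Pf4 and Ms4a7 likewise were highest in anti-B, with 25 and 41 counts. Cd163 had 6 and 2 counts in pair A, against 2 and 1 in pair B, Plac8 had 2 to 3 in each library, and Ly6c2 and Chil3 were at 0 in all 4. Neutrophil markers were few, at 1.94 to 2.60 CPM over 12 genes. Csf3r, the most abundant of them, had 25 and 27 counts in pair A, and 21 and 31 in pair B. S100a9 had 3 and 5 in pair A, against 3 and 1 in pair B, and Ngp had 3 and 1, against 4 and 1. Mmp8 and Cxcr2, chosen after their values were seen, had counts only in anti-B, at 6 and 4. The 12 lymphocyte genes summed to 5.15 to 7.80 CPM, most of it from Cd8a (63 to 98 counts) and Cd4 (21 to 43 counts). Cd79b, the next most abundant, had 2 to 4 counts, and 5 to 7 of the 12 were at 0 counts in each library. Erythrocyte genes went the other way, as their log2 ratios had a median of -0.57 in pair B but 1.92 in pair A. The part of macrophages or monocytes from outside the retina in the values of the 10 genes was not tested.

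The genes most like the list were found by the Euclidean distance between centred log2 CPM profiles over the 4 libraries, among the 13542 genes that averaged 50 or more counts. The 8 nearest to the mean profile of the 10 genes lay at distances of 0.187 to 0.329 on the log2 scale, among them Cd84, Tnfrsf1b, Adam8, Clec7a, Cebpd, Dock2 and Itgam. Of the 10 genes themselves, Ptprc was the nearest at 0.279 and Lgals3 the farthest at 2.33. The 8 genes were picked for their small distances among 13542, so their distances cannot be set against those of the 10. Cd84, a cell adhesion receptor of the SLAM family, had 46 and 34 counts in pair A, against 34 and 205 in pair B. Tnfrsf1b, a receptor for tumour necrosis factor, had 46 and 43 in pair A, against 43 and 233 in pair B. Itgam, the alpha chain of complement receptor CR3, had 97 and 62 in pair A, against 70 and 307 in pair B. This likeness is mostly the height of 1 library and is a description of these 4 libraries.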

How the data were processed

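Retinal RNA was sequenced from 2 anti-miR-124 and 2 NC libraries. The authors deposited raw read counts per gene, with gene lengths in bases. A further 4 columns of RPKM values were not used here, and TPM was computed from counts and lengths. The submitters' processing notes name HISAT2 and mm9, while 99.8% of 36837 matched symbols overlapped RefSeq genes of GRCm38 in position, so GRCm38 is used for positions. The counting tool and its use of strand are not given in the sources used here. No gene with counts overlapped the 10 genes. Columns were assigned to groups by the eye they name. Every pair of libraries differed beyond sampling noise (chi-square over its degrees of freedom 3.44 or more).

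Counts were tested with edgeR 4.0.16 (R 4.3.3) with TMM, its filter on low counts, which all 10 genes passed, no covariate, both directions, and Benjamini-Hochberg adjustment over 17766 genes. Standard errors are the fold change over the root of its F statistic. The fit was tested on simulated data. DESeq2 1.42.0 and limma 3.58.1 were alternatives, with other scalings, filters, a block and left-out libraries. Ratios within a pair use TMM-scaled counts, with 0.5 added for log2 values and for genes outside the 10, and exact binomial intervals (scipy 1.17.1, Python 3.11.15). The named genes are the 10, the 3 most abundant genes of each other list, the 8 nearest by profile, and those given as chosen after their values were seen. These last include Fcgr2b, Mmp8, Cxcr2 and the other 7 macrophage and monocyte genes. Some items are not reported here. The 10 genes and all lists were chosen with earlier results of these data known.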

Additional observations from a re-analysis of the deposited data

How the results depend on the processing

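The count of genes past an adjusted p of 0.05 was 0 of all genes and 0 of the 10 with the main settings, and 379 and 8 without a filter on low counts. DESeq2's Wald test gave 36 and 0. Leaving out each library in turn gave 0 to 235 of all genes and 0 to 9 of the 10, the highest without anti-A. The causes were not tested. At an unadjusted p under 0.05, 2 of the 10 genes passed with the main settings, 9 without the filter, 4 with DESeq2, 0 with limma-voom, and 0 to 10 with a library left out. The shares of all genes at that threshold were 3.91%, 4.93%, 1.73%, 3.34% and 1.62% to 10.2%. With the replicate number as a block, 0 genes passed the adjusted and 1 of the 10 the unadjusted threshold (all genes: 376, against 694 without the block), and the deviations of same-numbered libraries had a correlation of -0.16. With the numbers crossed, a pairing added after seeing the data, 160 of all genes and 2 of the 10 passed. Unadjusted, 9 of the 10 and 7.35% of all genes passed in that fit. The median log2 fold change of the 10 genes ran from -0.26 to 1.92 with a library left out. Without anti-B, it reversed for Trem2 (-0.57), Tyrobp (-0.15), Cd68 (-0.80), Fcer1g (-0.55), Lgals3 (-0.54), Ptprc (-0.12) and Aif1 (-0.38), with their other leave-one-out values up to 1.69, 1.75, 2.27, 2.01, 4.64, 1.93 and 1.17. The number of genes higher in both pairs was 1 with TMM, 3 with TPM and 2 with total counts. Scaling by DESeq2 size factors, total counts or upper quartiles changed no other count or median named here by over 1.5 times. Depth limits Aif1, Fcgr1 and Lgals3 most, at 12 to 20 counts in 3 of the 4 libraries.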
